A study of Mus musculus with 9 samples.

Results

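The 10 genes described here in mouse group 2 innate lymphoid cells (ILC2s) encode subunits of receptors for interferons, IL-27, IL-12 and IL-23. They also include the genes of Janus kinases bound to those subunits. They were taken by name from the 23234 genes listed, and all 10 passed the expression filter that left 11014 genes for testing. Ifngr1 and Ifngr2 form the IFN-γ receptor, Il27ra and Il6st the IL-27 receptor, and Ifnar1 and Ifnar2 the type I interferon receptor. Il12rb1 is a chain of the IL-12 and IL-23 receptors, and Jak1, Jak2 and Tyk2 are the kinases. The cells were cultured for 48 h in 1 of 3 ways: in IL-33 with IFN-γ, in IL-33 with IL-27, or in IL-33 alone, with every cytokine at 10 ng/ml and 3 RNA sequencing libraries for each. IL-33, the alarmin that activates ILC2s, was therefore present in all 9 libraries, and no culture without it was part of the design. All cells were from wild-type C57BL/6 mice and had been taken from the lymphoid clusters of fat (FALC). The labels give no age, sex or number of mice and do not say whether the 3 libraries of a group came from separate cultures or animals. P-values thus measure the spread between these libraries, which may be technical.

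Cytokine receptors of this kind have no enzyme of their own. Binding of the cytokine brings 2 receptor chains together, the Janus kinases held on their tails phosphorylate each other and the receptor, and STAT proteins dock there, are phosphorylated and move to the nucleus. The IFN-γ receptor works through JAK1 and JAK2, and the STAT dimers that form bind a motif called GAS. The IL-27 receptor joins IL-27Rα, a chain of its own, to gp130, a chain shared with the receptors of IL-6, LIF and oncostatin M. The type I interferon receptor uses JAK1 and TYK2, and a complex that contains STAT2 and IRF9 binds a motif called ISRE. In ILC2s, IFN-γ and IL-27 are known as restraints on the type 2 response that IL-33 drives.

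Expression is given as FPKM, a unit taken from the tools that the submitters name, since the deposited tables state none. In FPKM the fragments of a transcript are divided by its length and by the size of the library, so that levels of genes of different length can be set side by side. The FPKM of a library summed to 628625 to 672534, and 10504 to 11004 genes had at least 1 FPKM. Spacing of the lowest values put the depth of the 6 libraries of replicates 1 and 2 near 895000 to 991000 fragments, while in the replicate 3 libraries, whose values carry 1 decimal, no depth could be estimated. All 14 ILC2 markers were listed and passed the filter, with summed levels of 6111 to 9966 FPKM with IFN-γ, 12611 to 13407 FPKM with IL-27 and 14785 to 22443 FPKM with IL-33 alone. Most of each sum came from the cytokine genes Il13 and Il5, and the other 12 markers summed to 1944 to 3169 FPKM with IFN-γ, 2597 to 4178 FPKM with IL-27 and 2187 to 3450 FPKM with IL-33 alone. Markers of other cells were lower: the summed level of 6 NK and ILC1 markers stayed at or under 2.8 FPKM per library and that of 4 endothelial markers at or under 1.2 FPKM. The 6 T cell markers, 1 of which (Cd4) was listed at 0 throughout, summed to 35.9 to 82.7 FPKM with IFN-γ, 48.6 to 104.7 FPKM with IL-27 and 33.97 to 82 FPKM with IL-33 alone, most of it from Cd3g. The 4 B cell markers summed to 20.3 to 84.8 FPKM with IFN-γ, 33.2 to 57 FPKM with IL-27 and 33.7 to 40.3 FPKM with IL-33 alone, and the 9 macrophage and mast cell markers to 26.6 FPKM at most. The 8 fibroblast markers, none at 0 in every library, summed to 36.2 to 86.5 FPKM in the 3 replicate 3 libraries and to 2.92 to 17.6 FPKM in the other 6. Of these 8, Lum was lower in replicate 3 than in replicate 1 of each group, and Dcn in IL-27 replicate 3 (1.2 FPKM) was not above IL-27 replicate 1 (1.297 FPKM).

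Il12rb1 was the gene of the 10 with the largest difference from IL-33 alone under both added cytokines, and Il27ra came second. Of the 10 genes, 1 (Il12rb1) passed the threshold of an adjusted p under 0.05 in the IFN-γ comparison and rose, in the limma fit of all 3 groups, against 2.19% of all tested genes called higher. With the replicate number as a block, 2 passed and rose (Il12rb1 and Il27ra), against 6.51% of all tested genes. In the IL-27 comparison 0 of 10 passed in the limma fit, against 0.908% of all tested genes called higher, and 3 of the 10 had an unadjusted p under 0.05, against 9.51% of all tested genes. With the block 2 of 10 rose, again Il12rb1 and Il27ra, against 3.37%. None of the 10 fell, where 0.717% of all tested genes did with IFN-γ and 0.118% with IL-27 (4.66% and 1.78% with the block). The median log2 fold change of the 10 genes was 0.44 with IFN-γ and 0.34 with IL-27, beside 0.03 and 0.01 over all tested genes. Because both comparisons use the same 3 libraries of IL-33 alone, their likeness is not independent.

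Counts over libraries gave a similar description. With IFN-γ, 6 of the 10 genes were higher in all 3 replicate pairs, against 24.4% of all tested genes, and for 3 of them (Il12rb1, Il27ra and Jak2) every library with IFN-γ was above every library with IL-33 alone, against 11.9%. With IL-27, 5 of the 10 were higher in all 3 pairs, against 23.1%, and 4 did not overlap (Il12rb1, Il27ra, Ifnar1 and Jak2), against 8.29%. None of the 10 was lower without overlap, against 8.65% of all tested genes with IFN-γ and 5.72% with IL-27.

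**Figure D1:**
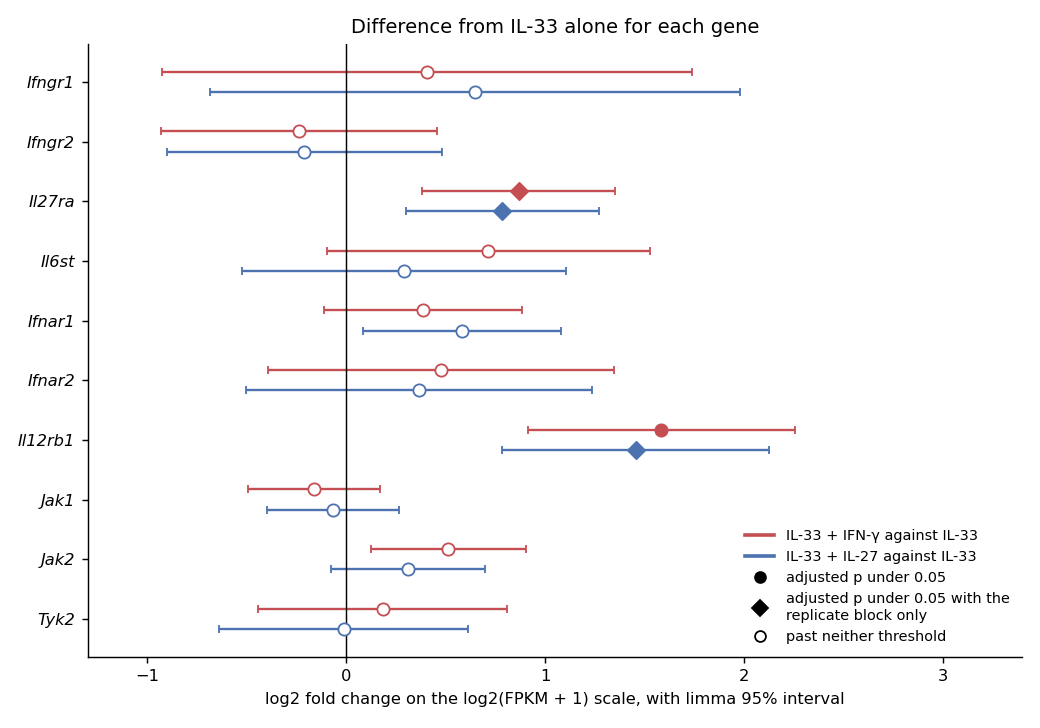
Log2 fold changes of the 10 genes on the log2(FPKM + 1) scale against IL-33 alone, with limma 95% intervals, for IL-33 with IFN-γ (red, upper of each pair) and IL-33 with IL-27 (blue, lower). Filled circles passed an adjusted p of 0.05, filled diamonds passed it with the replicate block only, and open circles passed neither. Il12rb1, at 1.58 and 1.46, lies farthest to the right, followed by Il27ra at 0.87 and 0.78.

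Il12rb1 encodes IL-12Rβ1, the chain that binds the p40 subunit of IL-12 and IL-23 and holds TYK2 (chromosome 8, 73332348 to 73345323, mouse build mm9). It had 194, 170 and 257 FPKM in the 3 libraries with IFN-γ, 205, 144 and 219 FPKM in the 3 with IL-27, and 103, 45.4 and 65.0 FPKM in the 3 with IL-33 alone. Every library with an added cytokine was above all 3 with IL-33 alone. With IFN-γ the gene rose 3.00-fold (95% interval 1.88 to 4.78; log2 fold change 1.58 ± 0.30 SE, limma adjusted p = 0.0213, 0.00262 with the replicate block). With IL-27 the fold was 2.74 (95% interval 1.72 to 4.37; log2 fold change 1.46 ± 0.30 SE, limma adjusted p = 0.0594), and the gene passed with the block (adjusted p = 0.00637). The log2 difference within replicate pairs 1, 2 and 3 was 0.90, 1.88 and 1.97 with IFN-γ and 0.98, 1.65 and 1.74 with IL-27.

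The call without the block depended on single libraries. In the IFN-γ comparison, dropping any IFN-γ library ended it (limma adjusted p = 0.0657, 0.0521 and 0.0915 for replicates 1, 2 and 3), as did dropping IL-33 replicate 2 (0.0699) or 3 (0.0572). Over the 9 omissions of a library the log2 fold change was 1.305 to 1.89. In the IL-27 comparison the adjusted p was 0.0268 without IL-33 replicate 1, the one omission that passed. With the block, Il12rb1 passed in 9 of 9 omissions in each comparison, with limma adjusted p of at most 0.0224 for IFN-γ and 0.0467 for IL-27. These blocked omissions were chosen after seeing the data and are given only for the genes that passed with the block. Omitting a library outside the groups compared left the log2 fold change of Il12rb1 unchanged (1.58 with IFN-γ, 1.46 with IL-27). Without the 3 replicate 3 libraries, in which the summed fibroblast markers were higher, its log2 fold change was 1.39 with IFN-γ (limma adjusted p = 0.179, 0.0409 with the block) and 1.32 with IL-27 (0.317, 0.0687 with the block).

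The other chains that complete an IL-12 or IL-23 receptor were near or at 0. Il12rb2, which pairs with IL-12Rβ1 for IL-12, was listed at 0.7 FPKM in IFN-γ replicate 3, at 0.376 FPKM in IL-27 replicate 1 and at 0 in the other 7 libraries, those of IL-33 alone included. Il23r, which pairs with it for IL-23, was listed at 0 in all 9.

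Il27ra encodes the IL-27Rα chain, also called WSX-1, which gives the IL-27 receptor its specificity (chromosome 8, 86554186 to 86566488). It had 49.8, 49.5 and 55.7 FPKM with IFN-γ, 55.5, 39.1 and 53.0 FPKM with IL-27 and 36.9, 25.04 and 23.3 FPKM with IL-33 alone. All 6 libraries with an added cytokine were above the 3 with IL-33 alone, the nearest being IL-27 replicate 2 and IL-33 replicate 1. The fold was 1.82 with IFN-γ (95% interval 1.303 to 2.55, log2 fold change 0.87 ± 0.22 SE), and the gene missed the threshold without the block (limma adjusted p = 0.0699) and passed with it (0.0184). With IL-27 the fold was 1.72 (95% interval 1.23 to 2.41; log2 fold change 0.78 ± 0.22 SE, limma adjusted p = 0.192, 0.0426 with the block). The gene was higher in 3 of 3 replicate pairs in each comparison.

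With the block and 1 library fewer, Il27ra passed in 5 of 9 omissions for IFN-γ and in 2 of 9 for IL-27, also chosen after seeing the data. Omitting a library outside the groups compared left the log2 fold change unchanged (0.87 with IFN-γ, 0.78 with IL-27). The passes for IFN-γ were with each IL-27 library, IFN-γ replicate 1 or IL-33 replicate 1 dropped. For IFN-γ Il27ra no longer passed when IFN-γ replicate 2 (limma adjusted p = 0.0887) or 3 (0.0759) or IL-33 replicate 2 (0.0619) or 3 (0.0574) was dropped. For IL-27 it still passed when IFN-γ replicate 1 (0.0320) or IL-33 replicate 1 (0.0421) was dropped. It did not pass when IFN-γ replicate 2 (0.0708) or 3 (0.0589), IL-27 replicate 1 (0.154), 2 (0.0995) or 3 (0.180), or IL-33 replicate 2 (0.125) or 3 (0.125) was dropped. Without the block, leaving out IL-33 replicate 1 brought the IFN-γ comparison past the threshold (0.0408). With replicates 1 and 2 alone, its log2 fold change was 0.69 with IFN-γ (limma adjusted p = 0.105 with the block) and 0.60 with IL-27 (0.217 with the block).

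**Figure D2:**
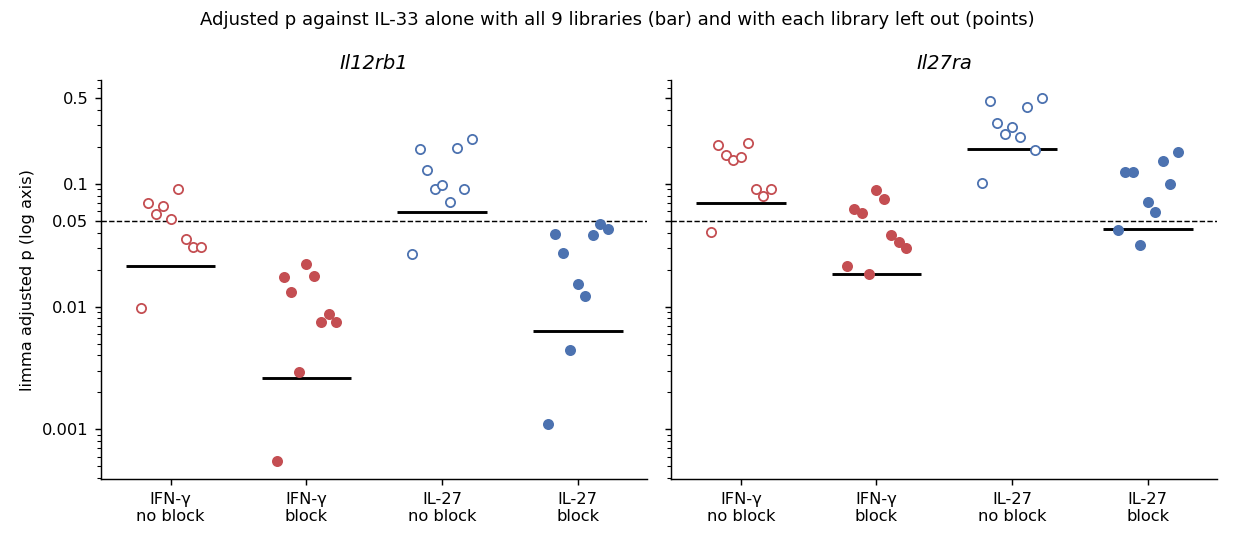
Limma adjusted p on a log axis for Il12rb1 and Il27ra in the comparisons of IFN-γ and of IL-27 with IL-33 alone, without the replicate block (open points) and with it (filled points). Each point leaves out 1 of the 9 libraries, the bar is the value with all 9, and the dashed line is 0.05. The omissions with the block were chosen after seeing the data. With the block all points of Il12rb1 lie under the line, while those of Il27ra lie on both sides of it.

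Il6st encodes gp130, the partner of IL-27Rα (chromosome 13, 113265216 to 113297068). It had 5.004, 4.13 and 7.2 FPKM with IFN-γ, 3.93, 2.66 and 4.8 FPKM with IL-27 and 2.33, 1.77 and 5.2 FPKM with IL-33 alone. The groups overlapped through IL-33 replicate 3, which was above 2 of the 3 libraries with IFN-γ and all 3 with IL-27. The log2 fold change was 0.71 ± 0.36 SE with IFN-γ (95% interval -0.10 to 1.53, limma adjusted p = 0.395) and 0.29 ± 0.36 SE with IL-27 (95% interval -0.52 to 1.10, adjusted p = 0.880). These values rest on few reads, about 9 to 24 fragments in each of the 6 libraries with a depth estimate. The lowest count, 9 in IL-33 replicate 2, has an exact Poisson 95% interval of 4.12 to 17.1, and the highest, 24 in IFN-γ replicate 1, of 15.4 to 35.7, covering counting error only.

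Within each library, where FPKM is per length and the chains can be compared, Il27ra exceeded Il6st 9.95, 11.99 and 7.74 times with IFN-γ, 14.1, 14.7 and 11.04 times with IL-27 and 15.9, 14.1 and 4.48 times with IL-33 alone. In all 9 libraries the specific chain was thus more abundant as RNA than the shared one, and the ratios of the 3 groups overlapped. The mean log2 ratio, on the log2(FPKM + 1) scale, was 3.06 ± 0.26 with IFN-γ, 3.396 ± 0.16 with IL-27 and 2.90 ± 0.82 with IL-33 alone (SD, n = 3 each). The exact permutation test gave two-sided p of 0.9 for IFN-γ and 0.6 for IL-27 against IL-33 alone. For this and the 2 other receptors, 9 such comparisons were made, the smallest p that 3 libraries against 3 allow is 0.1, and every adjusted p was at least 0.9.

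**Figure D3:**
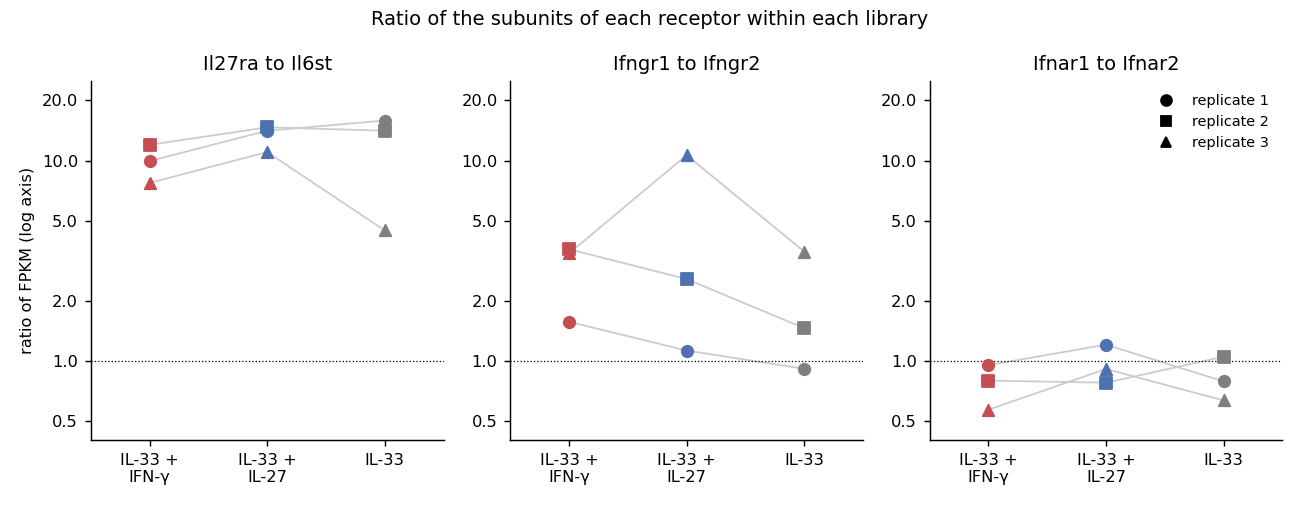
Ratio of the FPKM of the 2 subunits of the IL-27, IFN-γ and type I interferon receptors in each library, on a log axis, with libraries of the same replicate number joined by a line and the dotted line at 1. The Il27ra to Il6st ratio lies between 4.48 and 15.9 in all libraries, and the Ifnar1 to Ifnar2 ratio between 0.569 and 1.204.

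Ifngr1 encodes the chain of the IFN-γ receptor that binds the cytokine and holds JAK1 (chromosome 10, 19311755 to 19330035). It had 18.7, 27.3 and 50.2 FPKM with IFN-γ, 17.4, 32.0 and 76.7 FPKM with IL-27 and 13.4, 16.7 and 47.1 FPKM with IL-33 alone. The division among these libraries followed the replicate number: all 3 replicate 3 libraries were above the other 6, a pattern shared by 735 tested genes (6.67%) and by no other of the 10. The summed fibroblast markers were also higher in those 3 libraries, though not Lum. So were the summed T cell markers (82 to 104.7 FPKM against 33.97 to 49.0 FPKM), mostly through Cd3g. The ILC2 markers Rora, Id2, Gata3, Klrg1, Thy1 and Il7r showed the same split. Rora, for example, had 64.6 to 77.6 FPKM in replicate 3 and at most 41.9 FPKM elsewhere. The remaining ILC2 markers did not, and Kit was lowest in replicate 3 of each group. What underlies the Ifngr1 values was not tested. Ifngr1 was higher in 3 of 3 replicate pairs with IFN-γ, by 0.45, 0.68 and 0.09 on the log2 scale, and in 3 of 3 with IL-27, by 0.35, 0.90 and 0.69.

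These differences did not pass. For Ifngr1 the log2 fold change was 0.41 ± 0.60 SE with IFN-γ (limma adjusted p = 0.825, 0.172 with the block) and 0.65 ± 0.60 SE with IL-27 (0.808, 0.0763 with the block). Without the replicate 3 libraries it was 0.56 and 0.63. The 95% interval for IFN-γ was -0.93 to 1.74 without the block and 0.0134 to 0.80 with it, and for IL-27 -0.69 to 1.98 without the block and 0.26 to 1.04 with it.

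Ifngr2 encodes the chain that holds JAK2 and is needed for signalling (chromosome 16, 91547317 to 91565414). It had 11.9, 7.57 and 14.6 FPKM with IFN-γ, 15.5, 12.5 and 7.2 FPKM with IL-27 and 14.7, 11.5 and 13.4 FPKM with IL-33 alone. The groups overlapped fully and the replicate pairs pointed both ways, with 1 of 3 higher with IFN-γ and 2 of 3 higher with IL-27. Its log2 fold change was -0.24 ± 0.31 SE (limma adjusted p = 0.792) with IFN-γ and -0.21 ± 0.31 SE (0.901) with IL-27. The Ifngr1 to Ifngr2 ratio was 1.57 to 3.61 with IFN-γ, 1.13 to 10.7 with IL-27 and 0.912 to 3.51 with IL-33 alone. Its highest value was in IL-27 replicate 3, which held the highest Ifngr1 and the lowest Ifngr2 level of all 9 libraries.

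**Figure D4:**
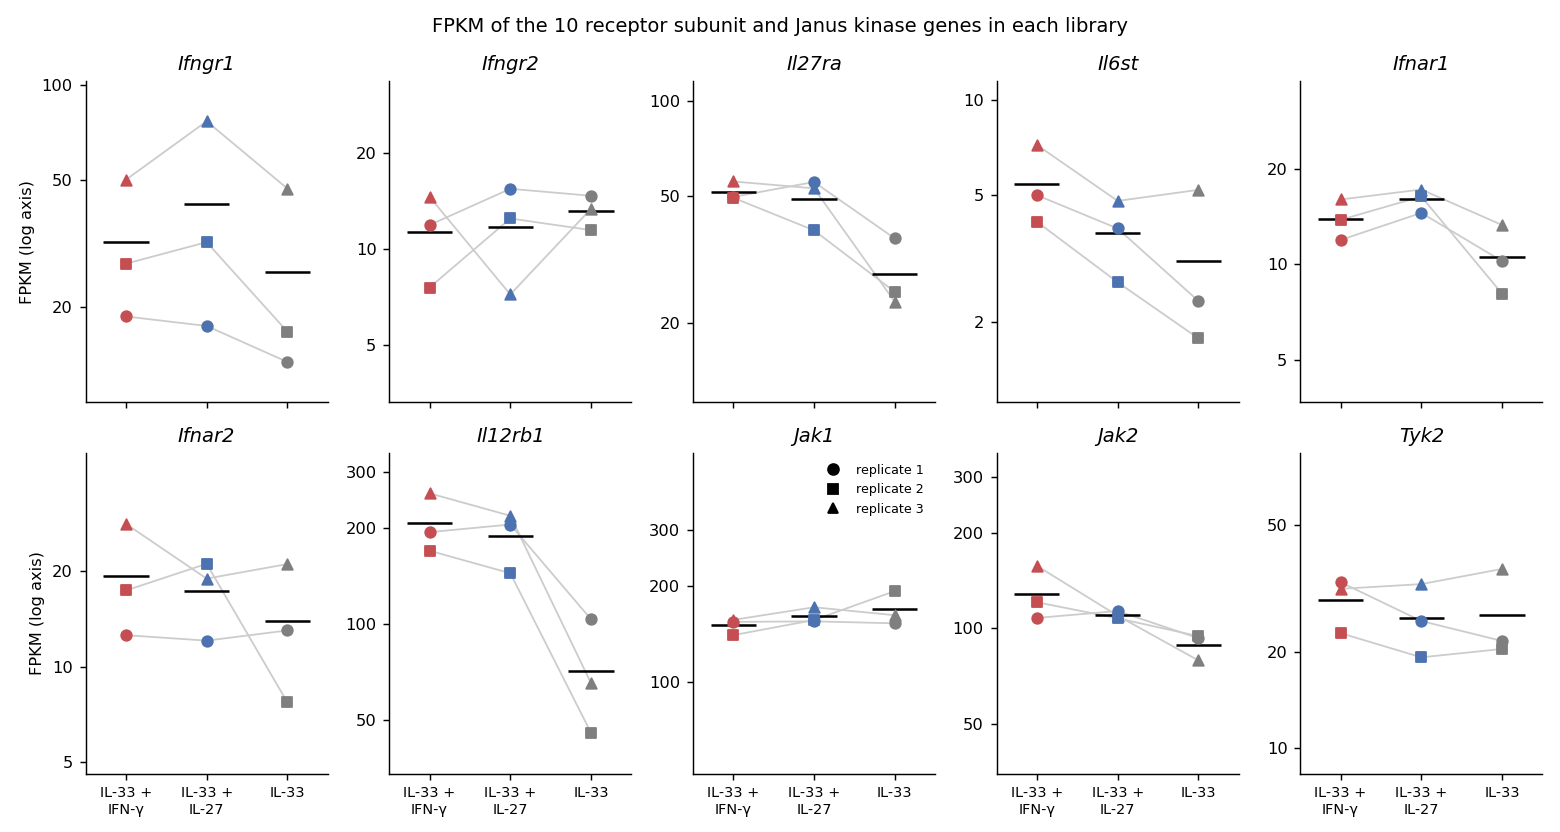
FPKM of each gene in each library, on log axes with a separate range per gene, for IL-33 with IFN-γ (red), IL-33 with IL-27 (blue) and IL-33 alone (grey). Symbols mark replicates 1, 2 and 3, grey lines join libraries of the same number and the bar is the mean of 3 libraries. For Il12rb1 and Il27ra the libraries with an added cytokine lie above all 3 with IL-33 alone, whereas Ifngr1 separates replicate 3 from the other libraries.

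The subunits of the type I interferon receptor lie beside Ifngr2 on chromosome 16, where Ifnar2 (91373028 to 91419696), Il10rb, Ifnar1 (91485483 to 91507686) and Ifngr2 follow each other within 192 kb on the plus strand. Ifnar1, the chain that holds TYK2, had 11.9, 13.8 and 16 FPKM with IFN-γ, 14.5, 16.4 and 17.2 FPKM with IL-27 and 10.2, 8.08 and 13.3 FPKM with IL-33 alone. With IL-27 the 3 libraries were above those of IL-33 alone, while with IFN-γ the groups overlapped through replicate 1. The log2 fold change was 0.39 ± 0.22 SE with IFN-γ (limma adjusted p = 0.465) and 0.58 ± 0.22 SE with IL-27 (95% interval 0.09 to 1.08, adjusted p = 0.414, 0.107 with the block). Ifnar1 was higher in 3 of 3 replicate pairs in both comparisons.

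Ifnar2, the chain that binds interferon more tightly and holds JAK1, had 12.5, 17.3 and 28.1 FPKM with IFN-γ, 12.1, 21.0 and 18.9 FPKM with IL-27 and 13.0, 7.71 and 21.0 FPKM with IL-33 alone. The groups overlapped, and the lowest value of all belonged to IL-33 replicate 2. The log2 fold change was 0.48 ± 0.39 SE with IFN-γ (limma adjusted p = 0.626) and 0.37 ± 0.39 SE with IL-27 (0.846). In the annotation Ifnar2 overlaps Il10rb on the same strand, so part of the reads of the pair may be assigned to either gene. Il10rb, a chain of the IL-10 and type III interferon receptors, had 13.2 to 23.4 FPKM over the 9 libraries. The Ifnar1 to Ifnar2 ratio was 0.569 to 0.951 with IFN-γ, 0.777 to 1.204 with IL-27 and 0.633 to 1.05 with IL-33 alone. It was lowest in IFN-γ replicate 3, with 16 FPKM of Ifnar1 against 28.1 FPKM of Ifnar2.

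Promoters were available in a RefSeq table (build GRCm38.p6, 250 bases before to 50 after the start) for 8 of the 10 genes, namely the genes other than Il27ra and Il12rb1. The GAS motif, TTCNNNGAA, which reads as the same pattern on both strands, was in 8.30% of the 32851 promoters of the table. Among the 8 it was in those of Ifnar1 and Ifnar2, which did not pass the test in either comparison. It was also in a promoter of Irf1, an interferon-induced transcription factor, while a second Irf1 promoter held no match. Irf1 rose 11.3-fold with IFN-γ (limma adjusted p = 0.00182) and 8.43-fold with IL-27 (0.00648). The gene was picked once its values were known, so no link between motif and response can be drawn from it. The 3 promoters are shown on the plus strand so that the matches, in capitals, can be seen in their setting. They lie at chr16:91484965-91485264 (Ifnar1), chr16:91372533-91372832 (Ifnar2) and chr11:53769764-53770063 (Irf1).
Ifnar1: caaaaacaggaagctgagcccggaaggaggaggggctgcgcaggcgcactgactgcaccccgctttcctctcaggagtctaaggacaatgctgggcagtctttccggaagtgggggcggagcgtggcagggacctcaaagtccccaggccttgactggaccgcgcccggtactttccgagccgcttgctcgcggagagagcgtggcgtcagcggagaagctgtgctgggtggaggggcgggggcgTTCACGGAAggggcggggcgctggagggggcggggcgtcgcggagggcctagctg
Ifnar2: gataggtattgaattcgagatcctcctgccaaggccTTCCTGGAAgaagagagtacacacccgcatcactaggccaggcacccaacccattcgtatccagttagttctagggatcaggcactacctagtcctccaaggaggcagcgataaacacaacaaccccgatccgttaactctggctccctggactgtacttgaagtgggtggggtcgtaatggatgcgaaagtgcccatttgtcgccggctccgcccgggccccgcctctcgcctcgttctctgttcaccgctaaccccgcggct
Irf1: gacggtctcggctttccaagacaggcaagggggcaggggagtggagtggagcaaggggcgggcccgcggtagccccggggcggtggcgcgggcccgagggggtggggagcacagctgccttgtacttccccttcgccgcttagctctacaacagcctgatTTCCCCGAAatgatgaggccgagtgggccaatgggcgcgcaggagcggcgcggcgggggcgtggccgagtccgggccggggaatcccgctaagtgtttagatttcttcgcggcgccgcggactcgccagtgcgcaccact
The match of Ifnar1, TTCACGGAA, starts at base -5 from the start site, that of Ifnar2, TTCCTGGAA, at -214, and that of Irf1, TTCCCCGAA, at -90. The core of the ISRE, GAAANNGAA, searched on both strands, was in 8.56% of all promoters and in 0 of the 8, which says only that these letters are not in this window. The GC box GGGCGG, on either strand, was in 8 of the 8 promoters, against 35.7% of all, and the CCAAT box in 5 of the 8, against 37.4%. A match is a string of letters and not a shown site of binding.

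Of the kinases, Jak1, which serves all 3 interferon and IL-27 receptors (chromosome 4, 100824972 to 100937887), was among the most abundant of the 10 genes in every group. It had 154, 140 and 156.5 FPKM with IFN-γ, 155, 156 and 171.5 FPKM with IL-27 and 153, 193 and 162 FPKM with IL-33 alone. The log2 fold change was -0.16 ± 0.15 SE with IFN-γ (95% interval -0.50 to 0.17, limma adjusted p = 0.670) and -0.07 ± 0.15 SE with IL-27 (95% interval -0.40 to 0.27, 0.943). These are among the narrowest intervals of the 10 genes, with folds of 0.709 to 1.12 and 0.759 to 1.203.

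Jak2, the kinase on IFNGR2 and one of those that bind gp130 (chromosome 19, 29326318 to 29387570), had 108, 121 and 157 FPKM with IFN-γ, 113, 107 and 109.5 FPKM with IL-27 and 93.1, 94.4 and 79.2 FPKM with IL-33 alone. All 6 libraries with an added cytokine were above the 3 with IL-33 alone. The fold was 1.43 with IFN-γ (95% interval 1.09 to 1.87; log2 fold change 0.51 ± 0.17 SE, limma adjusted p = 0.187, 0.0720 with the block). With IL-27 it was 1.24 (95% interval 0.947 to 1.62; log2 fold change 0.31 ± 0.17 SE, 0.654), so neither difference passed. Jak2 was higher in 3 of 3 replicate pairs in each comparison, and without the replicate 3 libraries its log2 fold change was 0.28 with IFN-γ and 0.23 with IL-27.

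Tyk2, the kinase held by IFNAR1 and IL-12Rβ1 (chromosome 9, 20908521 to 20931790), had 33.2, 22.9 and 31.6 FPKM with IFN-γ, 25.03, 19.2 and 32.7 FPKM with IL-27 and 21.7, 20.4 and 36.5 FPKM with IL-33 alone. The groups overlapped and did not differ beyond their spread (log2 fold change 0.18 ± 0.28 SE with IFN-γ and -0.01 ± 0.28 SE with IL-27, limma adjusted p = 0.833 and 0.998). Jak3, the remaining Janus kinase, which pairs with the common γ chain of the IL-2 family receptors, had 52.3, 35.8 and 55.9 FPKM with IFN-γ, 68.6, 36.2 and 66.8 FPKM with IL-27 and 40.3, 25.9 and 65.3 FPKM with IL-33 alone. It did not pass either (log2 fold change 0.20 and 0.42, limma adjusted p = 0.861 and 0.793).

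Ordered by mean FPKM, the genes stood in nearly the same broad ranks in the 3 groups, and Il12rb1 changed place. Il12rb1 came first with IFN-γ (207 ± 45.2 FPKM) and with IL-27 (189 ± 39.7 FPKM), and after Jak1 and Jak2 with IL-33 alone (71.2 ± 29.5 FPKM, SD, n = 3 each). With IFN-γ the lowest Il12rb1 library was above the highest Jak1 library, whereas with IL-27 these neighbours overlapped, as did Jak2 and Il12rb1 with IL-33 alone. Il27ra came after these 3 genes in each group and did not overlap the gene above it. Ifngr1, Tyk2, Ifnar2, Ifnar1 and Ifngr2 came next, in an order that was not the same with IL-33 alone, with each neighbour overlapping the one before it. Il6st was last in each group, at 5.44 ± 1.58 FPKM with IFN-γ, 3.80 ± 1.07 FPKM with IL-27 and 3.10 ± 1.84 FPKM with IL-33 alone, and did not overlap the gene above it. In bulk libraries, fewer cells that express a gene and less RNA per cell cannot be told apart.

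Set directly against IL-27, IFN-γ called 0 of the 10 genes. The limma fit called 0 genes of all tested (0%), with 483 at an unadjusted p under 0.05 (4.39%) and none of the 10 among them, and the blocked fit called 20 genes (0.182%), again with 0 of the 10. The log2 fold changes of the 10, IFN-γ over IL-27, ran from -0.24 (Ifngr1) to 0.42 (Il6st), with a median of 0.10. For Il12rb1 the difference was 0.13 ± 0.30 SE (95% interval -0.54 to 0.80) and for Il27ra 0.08 ± 0.22 SE (95% interval -0.40 to 0.57). A p that misses the threshold does not show that the cytokines act alike on these genes, and differences within those intervals remain possible.

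The genes around these receptors were described from lists of the pathway. Of 17 related receptor chains, 16 were listed and 5 passed the filter, with 4 listed at 0 in all libraries (Il23r, Cntfr, Il22ra1 and Il20ra). With IFN-γ, 1 of the 5 fell, against 0.717% of all tested genes, and none rose, against 2.19%. Il10ra, the ligand-binding chain of the IL-10 receptor, had 8.91, 6.01 and 8.8 FPKM with IFN-γ, 11.9, 7.93 and 9.1 FPKM with IL-27 and 32.8, 17.6 and 41.4 FPKM with IL-33 alone, with no overlap in either comparison. It was 3.39-fold lower with IFN-γ (limma adjusted p = 0.0171), and no longer passed when IFN-γ replicate 2 (0.0752) or IL-33 replicate 1 (0.0695) was dropped. With IL-27 it was 2.84-fold lower (0.0661) and fell with the block (0.00737). The median log2 fold change of the 5 was -0.09 with IFN-γ and -0.13 with IL-27.

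Of 18 ligands, 7 passed the filter and 10 were listed at 0 in all libraries, among them the type I interferons listed (Ifnb1, Ifna1, Ifna2 and Ifna4), Il27, Il12a and Il12b. Ifng, the gene of IFN-γ, had 10.1, 12.2 and 10.6 FPKM with IFN-γ, 27.8, 12.1 and 8.6 FPKM with IL-27 and 0, 0 and 1 FPKM with IL-33 alone, and rose in both comparisons (limma adjusted p = 0.00320 and 0.00330). It passed the filter through the libraries with an added cytokine. Osm, the gene of oncostatin M, whose receptor contains gp130, had 76.5, 76.9 and 115 FPKM with IFN-γ, 135, 175 and 184 FPKM with IL-27 and 175, 159 and 187 FPKM with IL-33 alone. It fell with IFN-γ, by 0.97 on the log2 scale (limma adjusted p = 0.0338). Dropping IFN-γ replicate 1 (0.116) or 2 (0.129), IL-27 replicate 2 (0.0606) or any IL-33 library (0.0985, 0.0790 and 0.0895) ended that call. Ebi3, which encodes the IL-27 subunit that pairs with the p28 chain of Il27, had 34.7 to 83.2 FPKM and did not pass in either comparison.

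Among 8 other JAK-STAT transducers, all tested, 2 rose with IFN-γ (Stat2 and Irf9), against 2.19% of all tested genes. With IL-27, 1 rose (Irf9), against 0.908%. None fell, where 0.717% of all tested genes did with IFN-γ and 0.118% with IL-27. Stat2 had 21.9, 15.5 and 21.1 FPKM with IFN-γ, 24.1, 9.78 and 17 FPKM with IL-27 and 6.31, 3.33 and 6.9 FPKM with IL-33 alone, with no overlap in either comparison. It rose 3.22-fold with IFN-γ (limma adjusted p = 0.0308) and with IL-27 had a fold of 2.69 (0.118), rising there with the block (0.00619). Its IFN-γ call ended when any IFN-γ library (0.109, 0.0703 and 0.115) or IL-33 replicate 1 (0.0699) or 2 (0.105) was dropped.

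Irf9 rose 2.66-fold and 2.85-fold (limma adjusted p = 0.00894 and 0.0134), and its IL-27 call ended when IL-27 replicate 1 (0.0672) or 2 (0.0645) or IL-33 replicate 1 (0.0501) or 2 (0.0610) was dropped. Stat3, used by gp130, and Stat4, used by the IL-12 receptor, did not pass in either comparison. Stat3 had log2 fold changes of 0.28 with IFN-γ and 0.25 with IL-27, and Stat4 of 0.30 and 0.22 (limma adjusted p at least 0.579). Stat5a passed with the block only, lower with IFN-γ (0.0425).

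Of 20 negative regulators, all tested, 2 rose with IFN-γ (Socs1 and Usp18), against 2.19% of all tested genes. With IL-27, 1 rose (Usp18), against 0.908%. None fell, where 0.717% of all tested genes did with IFN-γ and 0.118% with IL-27. Socs1, which encodes a protein that binds and inhibits JAK1, JAK2 and TYK2, had 30.9, 50.1 and 41.1 FPKM with IFN-γ, 16.3, 14.7 and 14.2 FPKM with IL-27 and 8.01, 4.59 and 3.9 FPKM with IL-33 alone. All libraries with an added cytokine were above the 3 with IL-33 alone, and those with IFN-γ were above those with IL-27. Socs1 rose 6.52-fold with IFN-γ (limma adjusted p = 7.07e-04), and with IL-27 its fold of 2.55 missed the threshold (0.0520) and passed with the block (0.0278).

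Usp18, whose product binds IFNAR2 and blocks its signalling, rose 11.8-fold and 5.30-fold (limma adjusted p = 0.0020 and 0.0287). Its IL-27 call ended when IFN-γ replicate 2 (0.0646), any IL-27 library (0.0965, 0.0840 and 0.120) or IL-33 replicate 1 (0.0835) or 2 (0.126) was dropped. With the block, Socs2 and Socs3 were also lower with IFN-γ (limma adjusted p = 0.0416 and 0.00136). Socs3 encodes a feedback inhibitor of gp130 and had 10.4, 20.9 and 38.5 FPKM with IFN-γ, 46.3, 74.7 and 163 FPKM with IL-27 and 30.3, 67.2 and 209 FPKM with IL-33 alone. In each group replicate 3 was the highest, as for Ifngr1. Set directly against IL-27, Socs3 was lower with IFN-γ in the blocked fit, which called 0.182% of all tested genes.

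Of these lists, the genes known as targets of the receptors had the largest median change. Of 16 listed targets, 14 passed the filter. With IFN-γ 12 of these rose, against 2.19% of all tested genes, and with IL-27 8 did, against 0.908%. With the block 14 and 12 rose, against 6.51% and 3.37%, and none was lower in these fits. The list was made of genes known to respond, with earlier results of these data known. A high share was therefore set by the choice of genes, and these counts are a description and no test. Cxcl9 and Ifit1 averaged under 1 FPKM with IL-33 alone and passed the filter through the libraries with an added cytokine. Of the other 12 targets, 11 rose with IFN-γ and 8 with IL-27 (12 and 11 with the block). The median log2 fold change of the 14 was 2.94 with IFN-γ and 2.32 with IL-27, against 0.44 and 0.34 for the 10 receptor and kinase genes. Psmb9, an immunoproteasome subunit gene, rose 7.77-fold and 5.21-fold (limma adjusted p = 3.58e-05 and 3.09e-04), and the guanylate-binding protein gene Gbp4 31.5-fold and 16.04-fold (3.26e-05 and 2.96e-04). Gbp2, of the same family, rose 111-fold and 52.9-fold (1.98e-05 and 1.26e-04).

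**Figure D5:**
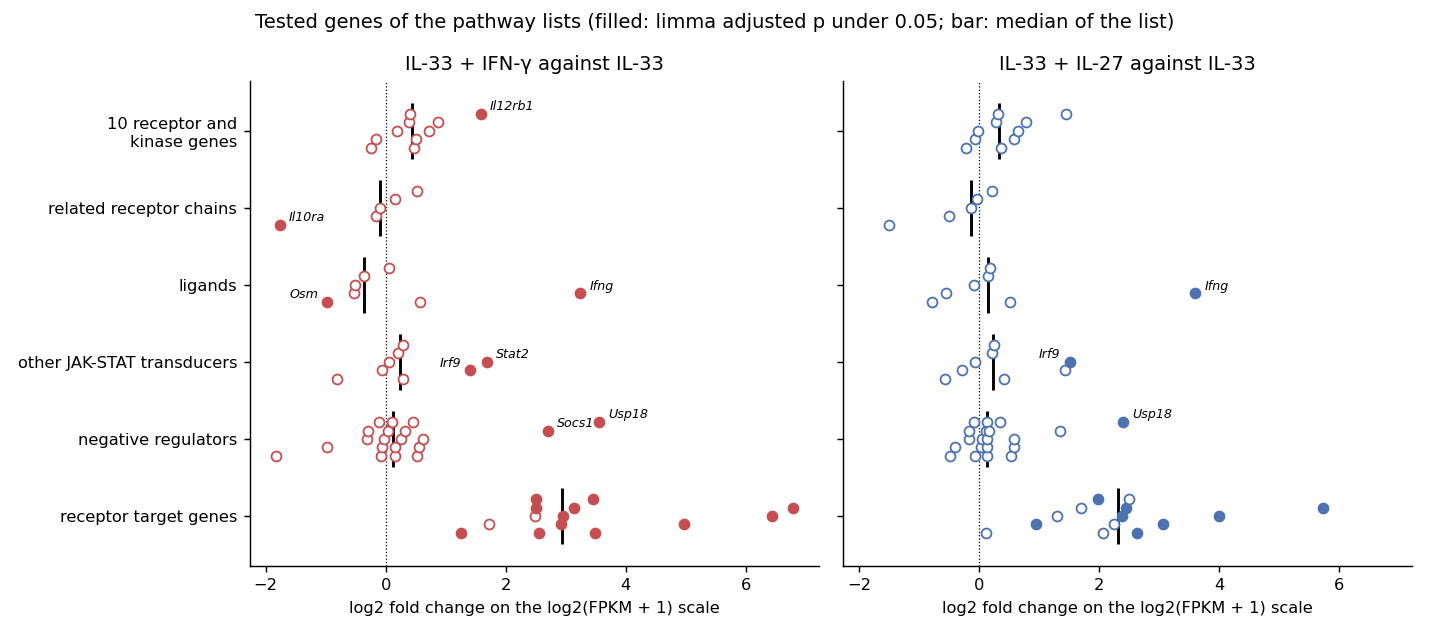
Log2 fold changes on the log2(FPKM + 1) scale of the tested genes of each list, for IL-33 with IFN-γ against IL-33 (left) and IL-33 with IL-27 against IL-33 (right). Filled points passed a limma adjusted p of 0.05, and the vertical bar is the median of the list. The medians of the receptor target genes lie at 2.94 and 2.32, those of the 10 receptor and kinase genes at 0.44 and 0.34.

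The genes with the pattern most like that of Il12rb1 over the 9 libraries, among the 8437 tested genes whose mean reached 5 FPKM, were Arf3, Itgal and Pnpla2, with a Pearson correlation of log2(FPKM + 1) of 0.98 each. Il27ra stood in place 7 on that list at 0.97. Those most like Il27ra were Rcbtb1 (0.98), Abca2 (0.97) and Il12rb1 (0.97). Itgal, which encodes the integrin chain of LFA-1, had 137, 128 and 180 FPKM with IFN-γ, 129, 112 and 157 FPKM with IL-27 and 97.4, 65.5 and 83.9 FPKM with IL-33 alone. The points of these correlations share the libraries, their depth and the division into groups, so they describe likeness and carry no test.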

How the data were processed

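ILC2 RNA was sequenced as 9 TruSeq libraries, per the labels' protocols. Bowtie2 2.1.0, TopHat2 2.0.8, Cufflinks 2.1.1 and the mouse build mm9 are named in the submitters' processing notes. Each deposited table gives 1 value per gene and library, taken here as FPKM computed by the authors with Cufflinks: no header names the unit, and the tools and the range of the values are its only source. Replicate 3 values carry 1 decimal. The authors' strand setting and gene annotation are not given in the sources used here.

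Genes with a mean of 1 FPKM or more over the 9 libraries were tested with limma 3.58.1 in R 4.3.3 (trended empirical Bayes, two-sided) on log2(FPKM + 1), with 1 fit of the 3 groups and Benjamini-Hochberg adjustment over 11014 genes. Folds are on that scale, which understates the change of low genes. Ratios of subunits were compared by an exact permutation test. Python 3.11.15, numpy 2.4.6, pandas 2.3.3, scipy 1.17.1 and matplotlib 3.10.9 were used for the other steps.

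Replicate numbers come from the labels, which do not say what they mark. Deviations from the group means correlated between libraries of the same number (9 pairs, r of 0.128 to 0.367) and not between those of different numbers (18 pairs, -0.298 to -0.03). The numbers were therefore taken to pair the libraries, and a second limma fit held that number as a blocking factor.

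The 10 genes and the lists of related genes and markers were chosen with earlier results of these data known. A gene was left out of these lists and is not reported here. Per list and comparison, up to 3 genes past the threshold with the smallest adjusted p were named, with Jak3, Stat2, Stat3 and Stat4, and for pattern likeness the 3 genes with the highest correlation among those averaging 5 FPKM or more. Irf1, Socs2, Socs3, Stat5a, Ebi3, Il10rb, Il12rb2, Il23r and the cytokines of the closing section were added once their values were known. Other alternatives were a pseudocount of 0.1, no filter, rescaling to a common 75th percentile or without small RNA features, fits of 2 groups, and omission of libraries. Gene positions are those of the GENCODE vM1 annotation of mm9.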

Additional observations from a re-analysis of the deposited data

How the results depend on the processing

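With the replicate block, calls numbered 1230 for IFN-γ against IL-33 alone (320 without it), 567 for IL-27 against IL-33 alone (113 without it) and 20 for IFN-γ against IL-27 (0 without it). Of the 10 genes the block changed the calls of Il27ra (IFN-γ) and of Il27ra and Il12rb1 (IL-27) and no other. Block and 75th percentile scaling together, chosen after seeing the data, gave 1241, 570 and 23. Replicates 1 and 2 alone gave 176, 68 and 2, with the block (chosen after seeing the data) 188 for IL-27 and 3 for IFN-γ against IL-27. The fit of only the 2 groups gave 71 for IL-27, and no filter gave 2 for IFN-γ against IL-27. Leaving out 1 library gave 161 to 303, 50 to 128 and 0 to 2. In the last comparison 483 genes had an unadjusted p under 0.05. The cause of these shifts was not tested.

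Directions turned only for genes that did not pass in the comparison concerned. With replicates 1 and 2 alone, blocked or not, the log2 difference was 0.0903 for Ifngr2 and 0.0584 for Tyk2, and -0.15 for Ebi3 (IL-27 against IL-33 alone), and -0.11 for Ifnar2 (IFN-γ against IL-27). Over the omissions of 1 library, values against IL-33 alone ran, with IFN-γ, from -0.43 to 0.0059 for Ifngr2, -0.12 to 0.53 for Jak3 and -0.96 to 0.23 for Il6. With IL-27 they ran from -0.43 to 0.0768 for Ifngr2, -0.14 to 0.0317 for Jak1, -0.17 to 0.0495 for Osm, -0.00697 to 0.52 for Ebi3, -0.28 to 0.42 for Lif, -0.52 to 0.86 for Socs3 and -0.20 to 0.24 for Tyk2. For IFN-γ against IL-27 they ran from -0.18 to 0.37 for Ifnar2, -0.73 to 0.31 for Ifngr1, -0.31 to 0.22 for Ifngr2, -0.0546 to 0.26 for Il12rb1 and -0.0704 to 0.18 for Il27ra. The difference in mean log2 ratio turned for Il27ra to Il6st (IFN-γ against IL-33 alone, 0.15) with a pseudocount of 0.1 (-0.0141), with replicates 1 and 2 alone (-0.18) and over the omissions (-0.31 to 0.46). It turned for Ifngr1 to Ifngr2 (IFN-γ against IL-27, -0.22) with replicates 1 and 2 alone (0.44) and over the omissions (-0.92 to 0.62), and for Ifnar1 to Ifnar2 (IFN-γ against IL-33 alone, -0.0916) over the omissions (-0.26 to 0.10). Of all values recomputed for single genes, 1185 kept direction and side of the threshold, 38 lost a call, 41 gained one and 32 turned direction. Over 18 alternatives the log2 fold change of Il12rb1 was 1.305 to 1.89 with IFN-γ (12 passed) and 1.18 to 1.76 with IL-27 (3 passed), and that of Il27ra 0.69 to 1.06 (3 passed) and 0.60 to 0.98 (2 passed).

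With 3 libraries a group, 1 library can decide a call, and outlying libraries were not tested for. Il6st rests on few fragments, and no depth is known for replicate 3.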

Other observations

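Genes of other cytokines that signal through gp130 were expressed in these cells. Il6 had 378, 351 and 105.4 FPKM with IFN-γ, 488, 194 and 61.1 FPKM with IL-27 and 658, 335 and 133.9 FPKM with IL-33 alone. In each group replicate 1 was the highest and replicate 3 the lowest, and the groups overlapped (log2 fold change -0.36 with IFN-γ and -0.78 with IL-27, limma adjusted p = 0.894 and 0.841). Lif, the gene of leukemia inhibitory factor, had 56.1, 50.5 and 112.7 FPKM with IFN-γ, 113, 86.0 and 136.9 FPKM with IL-27 and 123, 54.6 and 145.2 FPKM with IL-33 alone, and did not pass either (-0.53 and 0.15, limma adjusted p = 0.594 and 0.957). The chains that pair with gp130 for these cytokines were near the floor: Il6ra reached at most 0.324 FPKM, Osmr 0.6 FPKM and Lifr 1.17 FPKM in any library. Il11ra1 ran from 0.331 to 5.3 FPKM and Lepr, the leptin receptor, from 2.2 to 4.6 FPKM over the 9 libraries.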
